A study of Mus musculus with 12 samples.

Results

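The genes described here code for proteins that the alveolar cells of the mammary gland secrete. They are Csn1s1, Wap, Wfdc18, Mfge8 and Lcn2, chosen by name from the deposited tables of mammary tumor RNA. All 5 were listed among the 1589 genes of the V-125 table, and 2 of the 5, Wap and Mfge8, were listed among the 1784 genes of the bexarotene table. Together the tables held 2876 genes. The tumors came from female MMTV-Neu mice, in which the MMTV promoter drives the oncogene Neu, the rodent HER2, in mammary epithelium. Tumors had reached about 5 mm when each mouse was assigned to a diet, and they were taken after 10 days. There were 12 tumors from separate mice, 4 on control diet, 4 on V-125 at 100 mg/kg diet and 4 on bexarotene at 100 mg/kg diet, and all diets carried the same ethanol and oil vehicle. V-125 and bexarotene are rexinoids, agonists of the retinoid X receptor (RXR). Values per tumor were analysed for the control and V-125 groups, and the authors' group means for bexarotene.

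Milk proteins are made by luminal alveolar cells under the control of prolactin, which acts through its receptor and the transcription factor STAT5, together with glucocorticoid and other nuclear receptors. Caseins assemble into the micelles of milk, whey proteins stay in solution, and other secreted proteins leave the cell on the membrane of milk fat globules. When milk removal stops, the gland involutes, and STAT3 signaling, acute phase proteins and the clearance of dead cells come to the fore. Tumors of the MMTV-Neu model are of luminal type and can keep part of this secretory program.

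Csn1s1 (ENSMUSG00000070702) codes for alpha-S1-casein and is a protein-coding gene on the plus strand at chr5:87666208-87682578 (GRCm38). It is the first gene of the casein cluster, in which Csn2 for beta-casein starts at position 87692624 and Csn3 for kappa-casein at position 87925579 of chromosome 5. Its longest coding transcript in GENCODE has 34 exons. Wap (ENSMUSG00000000381), the gene of whey acidic protein, lies on the minus strand at chr11:6635482-6638637 and has 4 exons. Wfdc18 (ENSMUSG00000000983), also named Expi, codes for a small protein with the 4-disulfide core domain of the whey acidic protein family. It lies on the plus strand of the same chromosome at chr11:83709015-83711348, with 3 exons. Mfge8 (ENSMUSG00000030605) codes for lactadherin, a protein of the milk fat globule that binds phosphatidylserine on dying cells and integrins on the cells that engulf them. It lies on the minus strand at chr7:79133768-79149060, with 10 exons. Lcn2 (ENSMUSG00000026822) codes for lipocalin 2, which binds iron-loaded siderophores and is made by neutrophils and by stressed or involuting epithelium. It lies on the minus strand at chr2:32384633-32388252, with 7 exons.

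Sequence upstream of a gene's start is where its promoter lies, and the RefSeq table for GRCm38.p6 held a window for all 5 genes, from 250 bases before to 50 bases after the start. Each window was searched on both strands for TTCNNNGAA, the form of a STAT site, for AGGTCA, the half-site of many nuclear receptors, and for TTGCNNAA, a form of C/EBP site. No match overlapped another. The 250 bases before the start are shown for the casein and the whey acidic protein gene, the classical milk genes of the group, with matches in capitals.
Csn1s1, chr5:87665958-87666207, plus strand: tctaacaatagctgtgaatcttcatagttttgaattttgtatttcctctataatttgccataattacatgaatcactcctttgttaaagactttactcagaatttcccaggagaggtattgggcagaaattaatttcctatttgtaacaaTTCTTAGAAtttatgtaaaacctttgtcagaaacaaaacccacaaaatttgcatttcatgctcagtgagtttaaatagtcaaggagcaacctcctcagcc
Wap, chr11:6638650-6638899, minus strand: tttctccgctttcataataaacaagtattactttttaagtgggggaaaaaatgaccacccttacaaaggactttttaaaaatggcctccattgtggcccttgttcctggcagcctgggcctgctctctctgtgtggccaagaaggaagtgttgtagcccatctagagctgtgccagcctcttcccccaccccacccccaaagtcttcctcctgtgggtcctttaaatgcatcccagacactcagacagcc
The Csn1s1 window held TTCTTAGAA from 100 to 92 bases before the start, the only match to TTCNNNGAA among the 5 genes. Of 32851 windows in the RefSeq table, 8.30% held TTCNNNGAA. The Lcn2 window held TTGCTCAA from 216 to 209 bases before the RefSeq start, which lies 513 bases inside the GENCODE gene, and 10.8% of all windows held TTGCNNAA. AGGTCA was in none of the 5 windows and in 16.3% of all windows. Base composition differed widely, from 32.8% G and C in the upstream bases of Csn1s1 and 38.4% in those of Wfdc18 to 49.6% for Wap, 56.4% for Lcn2 and 65.2% for Mfge8. These are matches of letters, and no binding was measured.

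In the V-125 comparison the mean level of each of the 5 genes was lower in treated than in control tumors, by 2.03-fold for Wfdc18, 2.18-fold for Lcn2, 3.05-fold for Mfge8, 3.33-fold for Csn1s1 and 4.84-fold for Wap. None of the 5 passed an adjusted p of 0.05 in edgeR's quasi-likelihood test, and neither did any of the 1333 genes tested. The tumors of the groups did not overlap for Csn1s1, Wfdc18 and Lcn2, and they overlapped for Wap and Mfge8. Of the 1589 listed genes, 17.6% did not overlap and were lower with V-125. The values that follow are normalized read counts, the counts divided by a size factor per tumor. In bulk tumor RNA, fewer alveolar-type cells and less of a transcript per cell cannot be told apart. A gene entered the deposited table only if its unadjusted p for this same difference was under 0.05, so that being listed and having a low unadjusted p are a description and not a result.

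**Figure D1:**
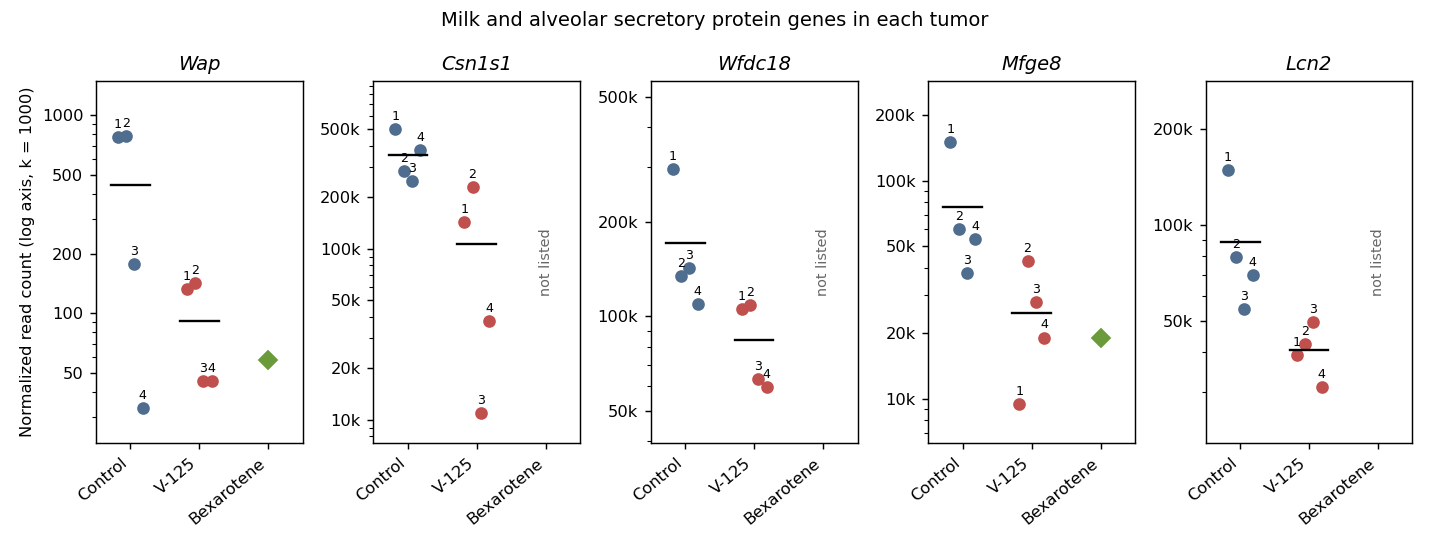
Normalized read count of each gene on a log axis, with 1 point per tumor numbered by replicate, a black line at the mean of 4 tumors and a green diamond for the authors' bexarotene mean where the gene is listed. Control 1 is the highest control tumor for Csn1s1, Wfdc18, Mfge8 and Lcn2, and Control 4 lies below all V-125 tumors for Wap.

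Csn1s1 had the highest mean normalized count of the 5 genes in both groups, although in V-125 3 and V-125 4 it was below Wfdc18. The control tumors 1 to 4 had 503854, 284145, 248201 and 376538 normalized counts, a range of 2.03-fold. The V-125 tumors 1 to 4 had 144229.7, 231316, 11029.7 and 37735 normalized counts, a range of 21.0-fold. Every treated tumor was below every control tumor, but V-125 2 came close to Control 3 whereas V-125 3 was far below all others. The mean was 106078 ± 101399 (SD, n = 4) in V-125 tumors against 353185 ± 114068 (SD, n = 4) in control tumors. The edgeR log2 fold change was −1.74 (SE 0.75, adjusted p = 0.791). The mean of log2(normalized count + 1) was lower by 2.48 with V-125 (two-sided exact permutation test, p = 0.0286, which is the lowest value possible with 4 against 4 tumors). The log2 fold change was −1.36 without V-125 3 and −2.46 without V-125 2, so that its size depended on single treated tumors. With limma-voom it was −2.48.

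Wap was the least abundant of the 5. Control tumors 1 to 4 had 777, 784, 178 and 33.3 normalized counts, a 23.5-fold range. V-125 tumors 1 to 4 had 133, 142, 45.7 and 45.5 normalized counts, a 3.13-fold range. Control 1 and Control 2 were high, whereas Control 4 was lower than every V-125 tumor and Control 3 was little above V-125 2. Its mean was 91.6 ± 53.3 (SD, n = 4) in V-125 tumors against 443 ± 394 (SD, n = 4) in control tumors, with an edgeR log2 fold change of −2.27 (SE 0.85, adjusted p = 0.752). On the log scale the difference of means was −1.62 (two-sided exact permutation test, p = 0.286). The SD on that scale was 0.91 with V-125 and 2.15 in controls. The fitted log2 fold change was −1.46 with limma-voom, which works on the log scale. The raw counts behind these values ran from 39 to 678 reads. Counting error was small beside the wide differences between tumors, such as that of Control 1 and Control 4. The order of the lowest tumors was not settled beyond counting error. Control 4 had 39 reads, V-125 4 had 43 and V-125 3 had 46, and their Wilson 95% intervals of the share of reads overlapped.

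Wfdc18 showed a narrower spread. Control tumors 1 to 4 had 295732, 134968, 142959.8 and 109814 normalized counts. V-125 tumors 1 to 4 had 105942, 108447, 63186 and 59443 normalized counts. The groups did not overlap, although V-125 2 and Control 4 nearly met, and V-125 3 and V-125 4 were the lowest. The mean was 84254 ± 26553 (SD, n = 4) in V-125 tumors against 170869 ± 84432 (SD, n = 4) in control tumors. The edgeR log2 fold change was −1.02 (SE 0.36, adjusted p = 0.709), and it was −0.62 without Control 1. The difference of mean log2 values was −0.97 (two-sided exact permutation test, p = 0.0286).

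For Mfge8, control tumors 1 to 4 had 150788, 60093, 37871 and 54317 normalized counts. V-125 tumors 1 to 4 had 9449, 43045, 27683 and 19118 normalized counts. The highest treated tumor, V-125 2, exceeded the lowest control tumor, Control 3, and the other 3 treated tumors were below all controls. The mean was 24823 ± 14249 (SD, n = 4) in V-125 tumors against 75767 ± 50892 (SD, n = 4) in control tumors, with an edgeR log2 fold change of −1.61 (SE 0.53, adjusted p = 0.677). Without Control 1 it was −1.03. The difference of mean log2 values was −1.61 (two-sided exact permutation test, p = 0.0571).

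Lcn2 was the most even of the 5 among treated tumors. Control tumors 1 to 4 had 149412, 79449, 54818 and 69991 normalized counts. V-125 tumors 1 to 4 had 39224, 42364, 49754 and 31187 normalized counts, a 1.60-fold range. The groups did not overlap, with V-125 3 just below Control 3. The mean was 40632 ± 7690.0 (SD, n = 4) in V-125 tumors against 88417 ± 41909.6 (SD, n = 4) in control tumors. The edgeR log2 fold change was −1.12 (SE 0.32, adjusted p = 0.588), and it was −0.74 without Control 1. The difference of mean log2 values was −1.04 (two-sided exact permutation test, p = 0.0286).

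Read against all listed genes, 5 of 5 were lower with V-125 at an unadjusted p under 0.05 in edgeR, where 34.8% of the 1333 genes that passed the filter on low counts were. All 5 passed that filter. At an adjusted p under 0.05, 0 of 5 were called and 0% of the 1333 genes, while 953 genes had an unadjusted p under 0.05. DESeq2 called 0 of 5 and 8.18% of the 1589 listed genes, and its adjusted p for Lcn2 was 0.0552. Groups that did not overlap, lower with V-125, were found for 3 of 5 genes and for 17.6% of the 1589. The median difference of log2 normalized counts was −1.61 over the 5 genes and 0.34 over all listed genes, of which 48.6% were lower. All of these genes were listed for a low p in this comparison, and the 5 were chosen with earlier results known, so these shares describe the group and test nothing.

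**Figure D2:**
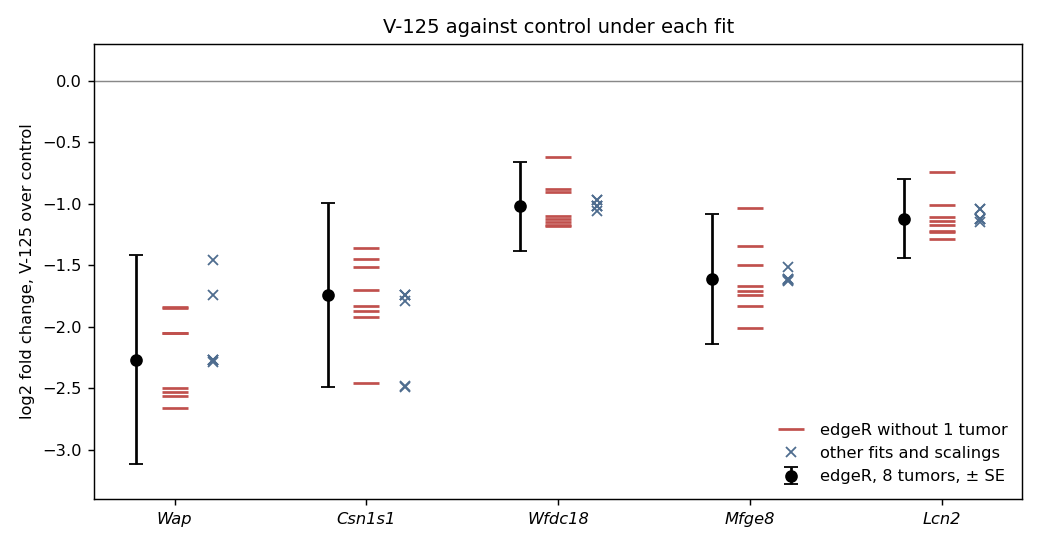
Log2 fold change of V-125 over control for each gene, with the edgeR estimate and its standard error in black, the edgeR estimates without 1 tumor in red and those of the other fits and scalings in blue. All estimates shown lie below 0, and the Csn1s1 estimates of the other fits lie near either −1.74 or −2.49.

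The 5 genes took a large part of each library. The library of a tumor held 15571690 to 22574865 reads on genes. Reads on the 5 genes were 6.13%, 3.10%, 2.68% and 3.38% of these in control tumors 1 to 4, and 1.67%, 2.34%, 0.838% and 0.817% in V-125 tumors 1 to 4. The mean share was 3.82% ± 1.56 (SD, n = 4) in controls and 1.42% ± 0.735 (SD, n = 4) with V-125. Wilson 95% intervals were narrow, for example 2.678% to 2.691% for Control 3 and 2.338% to 2.351% for V-125 2, and cover counting error only. Control 1 stood above all other tumors, and the lowest control share was close to the highest share with V-125.

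The makeup of these reads also varied between tumors. Csn1s1 gave 45.8%, 50.8%, 51.3% and 61.7% of the reads on the 5 genes in control tumors 1 to 4. It gave 48.2% and 54.4% in V-125 1 and V-125 2, within the range of the controls, but 7.27% in V-125 3 and 25.6% in V-125 4. In those last tumors Wfdc18 gave the largest share of the reads on the 5 genes, 41.7% and 40.3%, and Lcn2 gave 32.8% and 21.1%. The low level of casein reads was therefore unequal among treated tumors, whereas Lcn2 and Wfdc18 stayed within a 2-fold range.

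**Figure D3:**
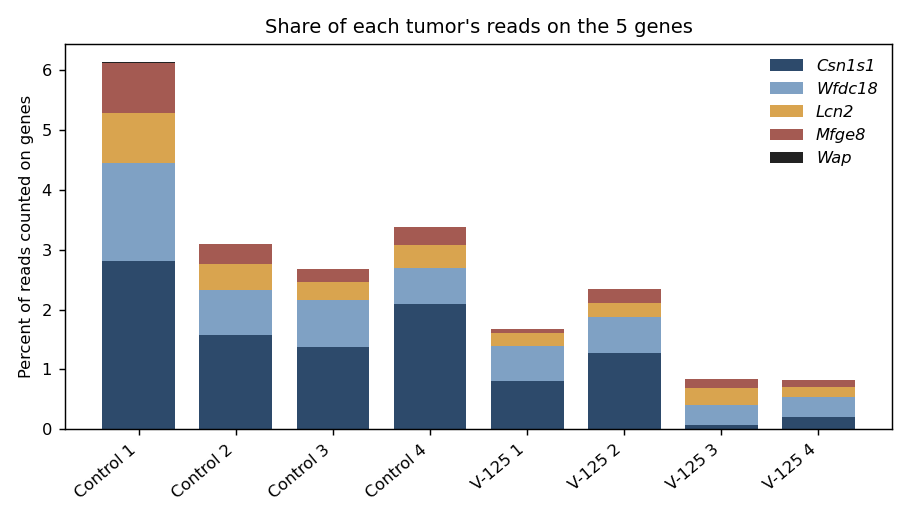
Stacked bars of the percent of reads counted on genes that fell on each of the 5 genes, for 4 control and 4 V-125 tumors. The total runs from 0.817% in V-125 4 to 6.13% in Control 1, and the Csn1s1 part is thin in V-125 3 and V-125 4.

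Levels were compared between the genes per length, in FPKM (reads scaled to gene length and library size). In control tumors the order of mean level was Wfdc18 with 7779 ± 3871 FPKM (SD, n = 4), Csn1s1 with 3138 ± 1021, Lcn2 with 1872 ± 893, Mfge8 with 897 ± 605 and Wap with 24.4 ± 21.7. With V-125 the order of mean FPKM was the same, Wfdc18 with 3829 ± 1215 (SD, n = 4), Csn1s1 with 941 ± 897, Lcn2 with 858 ± 160.3, Mfge8 with 292 ± 167 and Wap with 5.04 ± 2.94. On this scale Wfdc18 had the highest FPKM in each of the 8 tumors, and Wap the lowest. The neighbours Csn1s1 and Lcn2 were not separated in treated tumors beyond their spread, and Csn1s1 was above Lcn2 in V-125 1 and V-125 2 and below it in V-125 3 and V-125 4. In V-125 3, Csn1s1 had 97.5 FPKM, below Mfge8 with 326 and Lcn2 with 1047, whereas in V-125 1 it had 1292 FPKM, above Lcn2 with 837. Lcn2 exceeded Mfge8 within each of the 8 tumors, although the control ranges of 1159 to 3173 FPKM for Lcn2 and 447 to 1789 FPKM for Mfge8 overlapped.

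These FPKM values rest on gene lengths that merge the exons of all annotated transcripts, which for Csn1s1 is 6247 bases against 1411 bases in its longest coding transcript. Recomputed per length of that transcript, the order of mean control levels was unchanged, with 18215 ± 9063 (SD, n = 4) for Wfdc18, 13894 ± 4521 for Csn1s1, 5407 ± 2581 for Lcn2, 1981 ± 1337 for Mfge8 and 44.7 ± 39.7 for Wap. The gap between Wfdc18 and Csn1s1 was then smaller than the spread between tumors. On that scale Wfdc18 was the highest in 7 of the 8 tumors, and in Control 4 Csn1s1 was above it, with 14766 against 11663.

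The spread between tumors of 1 group was wide for these genes. The SD of log2 normalized counts with V-125 was 1.98 for Csn1s1, 0.93 for Mfge8, 0.91 for Wap, 0.47 for Wfdc18 and 0.28 for Lcn2. In controls it was 0.45 for Csn1s1, 0.85 for Mfge8, 2.15 for Wap and 0.62 each for Wfdc18 and Lcn2. The median SD over the 1291 listed genes with a mean of 20 or more normalized counts was 0.37 with V-125 and 0.38 in controls. Csn1s1 thus varied most among treated tumors and Wap most among controls. Differences of spread between the groups were not tested.

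Within groups the genes did not all move together. After each group's mean was subtracted from the log2 values, Pearson's r over the 8 tumors was 0.73 for Mfge8 and Lcn2, 0.72 for Wap and Wfdc18, 0.67 for Wfdc18 and Lcn2 and 0.64 for Csn1s1 and Wfdc18. It was 0.09 for Csn1s1 with Mfge8 and 0.08 for Csn1s1 with Lcn2. These are descriptions over 8 tumors that share libraries and scaling. Among the other 1588 listed genes, those most like Lcn2 were Timd2 (r = 0.988), Ccng2 (r = 0.978) and 2810459M11Rik (r = 0.958). These r values and those that follow are the highest of 1588 over 8 tumors, and a search of this size can give high values by chance. Those most like Mfge8 were Lbp (r = 0.968), which codes for the acute phase protein that binds lipopolysaccharide, Cd81 (r = 0.953) and Slc27a3 (r = 0.932). For Wfdc18 they were Pigc (r = 0.973), Chchd2 (r = 0.965) and H2afv (r = 0.961), and for Wap they were Rasd1 (r = 0.956), Pkib (r = 0.951) and Il17b (r = 0.926). Between groups Pkib went the other way from Wap, with a mean of 58.8 normalized counts with V-125 and 22.7 in controls. For Csn1s1 they were Gm48550 (r = 0.947), C2cd4a (r = 0.933) and Lipn (r = 0.907), all at 0 counts in every control tumor, so that this likeness rests on the 4 V-125 tumors and on few reads.

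For bexarotene, Wap and Mfge8 were listed and both means were lower than in controls. The authors' mean normalized count of Wap was 58.2 with bexarotene and 441 in controls, a 7.58-fold difference (log2 ratio −2.92). The authors' mean of Mfge8 was 19032 with bexarotene and 75402 in controls, a 3.96-fold difference (log2 ratio −1.99). Both were past 2-fold, as were 28.4% of the 1784 listed genes in this direction. These are group means with no spread, and no test was made. The Wap values of single control tumors given above span 33.3 to 784, so the control mean of Wap describes few of them. Csn1s1, Wfdc18 and Lcn2 were not listed for bexarotene, and no bexarotene value is given for them.

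Side by side, the mean of Wap was 91.6 in the V-125 table and 58.2 in the bexarotene table, and that of Mfge8 was 24823 and 19032. Both comparisons share the same control tumors, whose means differed by a factor of 1.004 to 1.008 between tables. The direct difference of V-125 and bexarotene, at the same 100 mg/kg diet and 10 days, was not tested, since no values of single bexarotene tumors were used. The single V-125 tumors ran from 45.5 to 142 for Wap and from 9449 to 43045 for Mfge8, and both bexarotene means lie within these ranges.

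Of 20 other genes of milk proteins and of the secretory epithelium, 1 was listed for V-125, Slc34a2 with a higher mean, and 5 for bexarotene. For V-125, 1589 genes were listed beside 15310 counted in the authors' adjustment, and for bexarotene 1784 beside 18687. Of the 1589 genes, 218 had an adjusted p that 15310 tests cannot give, so the V-125 share is approximate. Of the 1784 genes, 56.7% had a lower mean with bexarotene than in controls. The counts in this and the following lists are descriptions to be read beside these shares, and no enrichment was tested. Slc34a2, a phosphate transporter of the secretory epithelium, had a level of 1586 ± 734 in V-125 tumors and 851 ± 311 in control tumors (SD, n = 4, normalized counts), and the tumors overlapped. All 5 genes listed for bexarotene had lower means than controls, and 4 of them were past 2-fold. Csn2, beta-casein, had a mean of 13278 with bexarotene and 66296 in controls. Csn1s2a, an alpha-S2-casein, had 47540.2 and 167676, so that 2 casein genes of the cluster next to Csn1s1 were listed for bexarotene and Csn1s1 alone for V-125. Muc1, a mucin of the apical membrane, had 195 and 577, and Btn1a1, the butyrophilin of milk fat globules, had 4032 and 9399. The median log2 ratio of the 5 was −1.57, beside −0.56 over all genes of the bexarotene table with a mean above 0 in both groups. The rest of the 20 were not listed in either table.

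Of 19 genes of alveolar luminal differentiation, 4 were listed for V-125, 1 higher and 3 lower. Aldh1a3, a retinaldehyde dehydrogenase of luminal progenitors, had 28.6, 11.4, 2.98 and 22.2 normalized counts in V-125 tumors 1 to 4 and 224, 197, 39.1 and 196 in control tumors 1 to 4. Its groups did not overlap, and its edgeR log2 fold change was −3.32 (SE 0.71, adjusted p = 0.456). Kit, Tfap2c and the prolactin receptor gene Prlr overlapped between groups, and Prlr was the gene with the higher mean, 1436 ± 291 with V-125 and 1087 ± 167 in controls (SD, n = 4). For bexarotene 5 were listed, with Prlr higher and 4 lower. Past 2-fold were Cd14, which codes for a lipopolysaccharide co-receptor, with means of 310.1 and 1548, and Aldh1a3 with 33.2 and 163. Elf5, Stat5a and Stat5b, regulators of alveolar cells, were not listed in either table.

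**Figure D4:**
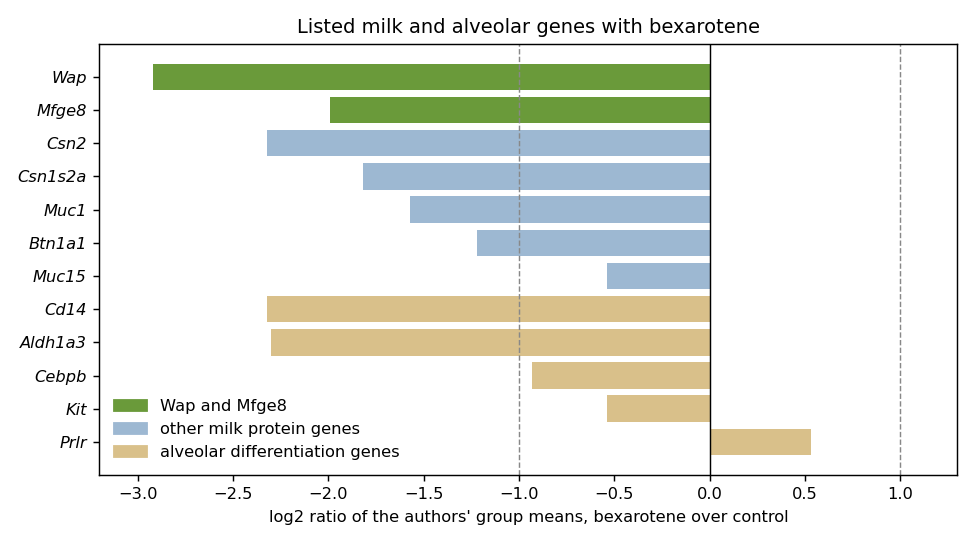
Log2 ratio of the authors' mean normalized counts, bexarotene over control, for Wap and Mfge8 (green), other listed milk protein genes (blue) and listed genes of alveolar differentiation (tan), with dashed lines at 2-fold. Ratios run from −2.92 for Wap to 0.53 for Prlr, and no spread is shown because only group means were used.

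Lcn2 is also known from involution and the acute phase, and of 20 genes of that list 1 was listed for V-125 and 5 for bexarotene. Lbp had 3598, 9624, 6525 and 4635 normalized counts in V-125 tumors 1 to 4 and 15166, 10366, 7879 and 9445 in control tumors 1 to 4, overlapping between groups. All 5 listed for bexarotene were lower, of which Lrg1, a secreted acute phase glycoprotein, was past 2-fold with means of 220.4 and 901. Of 15 genes related to Wap, Wfdc18 and Lcn2, Apod, a lipocalin, was listed for V-125 and was higher, with overlapping tumors. Wfdc2 and Slpi, both with the domain of whey acidic protein, were listed for bexarotene with means of 4.44 against 43.9 and 11.5 against 178. Of 12 genes of the engulfment of dying cells, the receptor kinase gene Mertk and the integrin gene Itgb5 were listed for V-125. Both had higher means with overlapping tumors, with Itgb5 at 10667 ± 1996 with V-125 and 7039 ± 826 in controls (SD, n = 4). For bexarotene, Gas6, which bridges dying cells to such receptors, was lower with means of 961 and 2416, and Stab1 was lower with less than a 2-fold ratio.

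Markers of cell types moved with these genes in part. Of 8 epithelial markers, 4 were listed for V-125, all with lower means, and their summed level ran from 44534 to 53549.9 with V-125 and from 58203 to 83683 in controls. Epcam, an adhesion molecule of epithelial cells, had a level of 32209 ± 2776 in V-125 tumors and 42502 ± 7389.7 in control tumors (SD, n = 4, normalized counts), and its groups did not overlap. The same 5 genes were therefore set relative to Epcam in each tumor. The log2 difference between groups was then −2.09 for Csn1s1 (two-sided exact permutation test, p = 0.0571), −0.58 for Wfdc18 (p = 0.114, exact) and −0.65 for Lcn2 (p = 0.0571, exact), and all groups overlapped. It was −1.22 for Mfge8 (p = 0.0571, exact) and −1.24 for Wap (p = 0.343, exact). The lower means remained for all 5 genes, while the separation of Csn1s1, Wfdc18 and Lcn2 was lost. It was lost narrowly for Csn1s1, with a log2 ratio of 2.73 in V-125 2 and 2.71 in Control 3. For Lcn2 the ratio was 0.57 in V-125 3 and 0.53 in Control 3. Among the listed epithelial markers Cdh1, Cldn3 and Cldn7 overlapped between groups, and none of them was used as divisor. This comparison was chosen after the data were seen, and Epcam was itself listed for a difference between the groups.

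**Figure D5:**
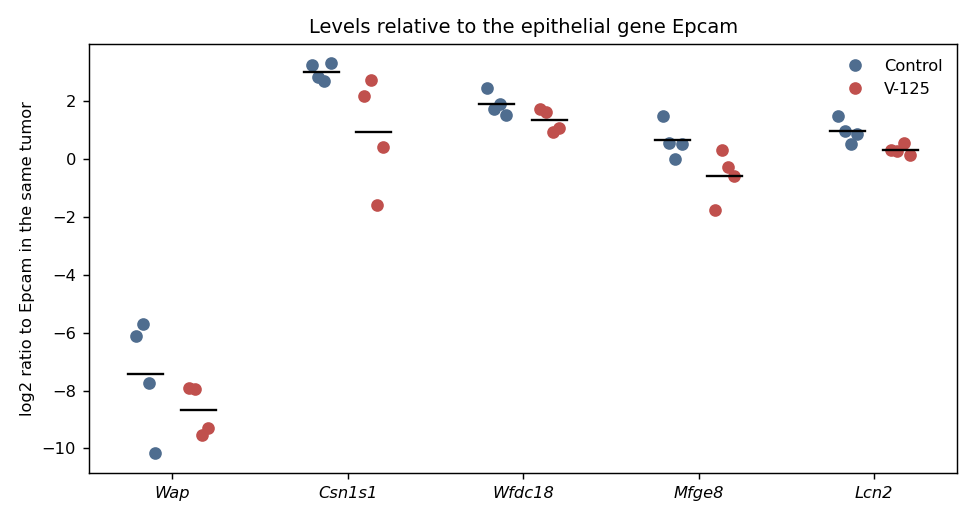
Log2 ratio of each gene's normalized count to that of Epcam in the same tumor, with 1 point per tumor and black lines at the means of 4 tumors. Means are lower with V-125 for all 5 genes, and the points of the groups overlap for each.

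Of 8 myoepithelial markers, 2 were listed for V-125, Acta2 and Trp63, both with lower means, and their summed level ran from 97.3 to 609 with V-125 and from 525 to 1032 in controls. The only endothelial marker listed of 6 was Kdr, with a level of 735 ± 134 in V-125 tumors and 408 ± 108 in control tumors (SD, n = 4, normalized counts), and its groups did not overlap. The T cell marker Cd2 (1 of 8) and the B cell marker Igkc (1 of 7) were listed with higher means with V-125, and their tumors overlapped. Of 8 hormone-sensing luminal markers 4 were listed, and all overlapped. Among these 4, Esr1, Ly6a and Prlr (also in the alveolar list) had higher means and Prom1 a lower mean. None of 10 neutrophil, 9 macrophage, 7 adipocyte or 6 fibroblast markers was listed for V-125, and so the level of neutrophils, another source of Lcn2, could not be read from this table. For bexarotene, 4 of 8 epithelial markers were listed, all with lower means, Cldn7 (log2 ratio −0.79), Cldn3 (−0.76), Krt18 (−0.56) and Krt8 (−0.47), beside the lower means of Wap and Mfge8. In the same table, 5 of 9 macrophage markers were listed with lower means, with C1qa at 752 and 2023 and C1qc at 506 and 1062. The adipocyte marker Fabp4 was higher, with means of 530.2 and 157. Of 8 myoepithelial markers 3 were listed, among them Myh11, higher with 113 and 39.4, and Krt17, lower with 0.275 and 13.1. Their part in the levels of the secretory genes was not tested.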

How the data were processed

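RNA from 12 frozen mammary tumors of MMTV-Neu mice was sequenced, and the labels gave each tumor's group and replicate number. For V-125, the authors deposited read counts per gene and tumor, normalized counts (a signal: counts scaled by a size factor for each tumor) and FPKM. For bexarotene, the authors' deposited means of normalized counts per group were used, and values of single tumors were not used here. Further columns, deposited by the authors, hold their p-value before and after adjustment and their log2 fold change, with 2 derived columns for bexarotene. These p-values served only to find that both tables stop at an unadjusted p of 0.05 and how many genes were tested. The numbers counted in the authors' adjustment were 15310 for V-125 and 18687 for bexarotene. For V-125, the adjusted p of 218 listed genes did not follow from 15310 tests, and these genes may lie outside that number. No other value of the authors' comparisons was used. The submitters' processing notes name STAR 2.6.1d, featureCounts 1.5.0-p3 and limma. The genome build and strand setting are not given in the sources used here. Of the 1589 gene identifiers 1583 were in GENCODE for GRCm38, 1526 of them with identical coordinates. Reads from overlapping or antisense genes cannot be told apart.

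Counts of 4 V-125 and 4 control tumors were fitted with edgeR 4.0.16 (quasi-likelihood test, deposited size factors, filterByExpr) in R 4.3.3, with Benjamini-Hochberg adjustment over 15310 tests. The SE given with each edgeR fold change was derived from that fold change and the F statistic of its test. Since the table holds only genes with a low p, the spread estimated across genes rests on these. For single genes, log2(normalized count + 1) was compared by exact permutation (two-sided, 70 assignments of tumors). The means for bexarotene were compared by ratio, past 2-fold counting as called. Fits were tested on simulated data. Alternatives were DESeq2 1.42.0, limma 3.58.1 with voom, other scalings, filters, pseudocounts and adjustments, the replicate block and leaving out each tumor. Python 3.11.15 with pandas 2.3.3, scipy 1.17.1 and numpy 2.4.6 was used, and matplotlib 3.10.9 for plots.

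The 5 genes are always named. Of the other gene lists, genes whose tumors did not overlap for V-125 or whose means were past 2-fold for bexarotene (at most 4 per list and table) were named with values, along with the 3 genes most like each of the 5. Slc34a2, Prlr, Lbp, Itgb5, Cldn3, Cldn7, Krt8, Krt18 and genes named by direction only were chosen after their values were seen. The genes and lists were chosen with earlier results of these data known. Replicates are separate mice. Among the 4 V-125 and the 4 control libraries, no pair within a group agreed within sampling noise. Promoter windows are from RefSeq for GRCm38.p6.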

Additional observations from a re-analysis of the deposited data

Results flagged for a closer look

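Each highest or lowest tumor of the 26 genes with values per tumor in the lists above was compared with the other 3 of its group by Dixon's ratio, in 52 groups of 4. A tumor stood apart in 5 of the 52, and chance gives about 1 in 20. None of the 5 secretory genes was among them. Control 1 stood above the other controls for Epcam with 53468 normalized counts, for Cldn7 with 5703 and for Apod with 69.2, and it was also the highest control for Csn1s1, Wfdc18, Mfge8 and Lcn2. Control 3 stood below the other controls for Aldh1a3 with 39.1 normalized counts. V-125 1 stood above the other treated tumors for Cd2 with 195 normalized counts.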

How the results depend on the processing

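The reported setting and 15 others gave 80 estimates for the 5 genes. All 80 had a log2 fold change below 0, and 0 of them had an adjusted p under 0.05. Adjustment over the listed genes alone reuses the reported fold changes and is not a separate fit. The genes were listed for this same difference, so the shared sign is a description. Without each tumor in turn the log2 fold change ran from −2.66 to −1.84 for Wap, −2.46 to −1.36 for Csn1s1, −2.01 to −1.03 for Mfge8, −1.18 to −0.62 for Wfdc18 and −1.29 to −0.74 for Lcn2. The weakest values of the last 3 genes were those without Control 1. The count of listed genes called in edgeR was 0, and it was 120 with adjustment over the listed genes alone, 130 with DESeq2, 953 at an unadjusted p under 0.05, and 0 to 1 when single tumors were left out (1 without Control 3). With adjustment over the listed genes alone, adjusted p was 0.0512 for Lcn2 to 0.0689 for Csn1s1, but those genes were listed for a low p. The count of genes whose tumors did not overlap was 614, and 704 to 855 without single tumors. Leaving out a tumor can only keep or raise this count. For bexarotene, 796 genes were past 2-fold and 1430 past 1.5-fold. Relative to Epcam, an alternative chosen after the data were seen, the log2 difference was −2.09 for Csn1s1, −0.58 for Wfdc18 and −0.65 for Lcn2. Their groups then overlapped, so the exact p was above its lowest possible value. That lowest value only restates that groups do not overlap, in genes listed for this same difference. Leaving out a tumor for the count of groups that do not overlap was also added then.

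Tumors with the same replicate number come from different mice, and the correlations of their deviations from the group means were 0.10, −0.02, −0.18 and 0.05, so the numbers do not pair the tumors. With the replicate block the log2 fold changes were −1.74 for Wap, −2.49 for Csn1s1, −1.51 for Mfge8, −0.97 for Wfdc18 and −1.04 for Lcn2, and the block called 0 genes.

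With 4 tumors a group the exact test cannot go below 0.0286. Depth did not limit Csn1s1, Wfdc18, Mfge8 or Lcn2. For bexarotene no spread between tumors was available to the comparison used here.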
